A study of Mus musculus with 2 samples.

Results

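The clustered protocadherins are cell adhesion proteins of the cadherin superfamily. Their genes lie head to tail in 3 clusters, alpha, beta and gamma, on mouse chromosome 18. In the alpha and gamma clusters each variable exon has its own promoter and is spliced to a set of constant exons shared by the cluster, whereas each beta gene makes its protein from its own exon. Single neurons are known to express a small, largely random set of the alpha, beta, gamma A and gamma B isoforms, chosen by which promoters are active, and the surface combination lets a neuron tell its own branches from those of others. The C-type genes at the ends of the alpha and gamma clusters are known to follow other rules and to be expressed more uniformly, each in its own neuronal populations.

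The genes examined were the protein-coding genes of chromosome 18 whose GENCODE name marks them as Pcdha, Pcdhb or Pcdhg variable genes. They numbered 57, of 21755 protein-coding genes that are not on the Y chromosome and 513 on chromosome 18. They comprised 12 alpha genes (Pcdha1 to Pcdha12), 22 beta genes (Pcdhb1 to Pcdhb22), 12 gamma A genes, 6 gamma B genes and 5 C-type genes (Pcdhac1, Pcdhac2, Pcdhgc3, Pcdhgc4 and Pcdhgc5). Pcdhgb8 was left out because the annotation classes it as a polymorphic pseudogene. GENCODE gave the name Pcdha11 to 2 genes, and the one that RefSeq places at Pcdha10 is called Pcdha10 here.

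Open chromatin was measured by DNase-seq, in which DNase I cuts accessible DNA. Peaks mark regions of dense cuts, footprints mark short stretches inside them that are shielded, and runs of bases carry the false discovery rate (FDR) of their cut rate. The 2 libraries came from nuclei of the mouse hippocampus (labelled as a layer of it) of B6CASTF1/J animals, a hybrid of C57BL/6J and the wild-derived CAST strain, recorded as male and 25 days old, with no treatment named. They are biological replicates 1 and 2 of 1 group, so no conditions were compared and no test between groups was possible. Both carry the same donor entry, and whether the animals were different is not known.

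Replicate 1 had 93545 peaks and 223251 footprints, and replicate 2 had 79144 and 170016. The number of reads behind them is unknown, because the files give no counts. Promoter peaks at the sex-linked genes examined did not match the label of replicate 2. All 4 Y-linked genes examined (Kdm5d, Eif2s3y, Uty and Ddx3y) had a promoter peak in replicate 1 and 0 had one in replicate 2, and the promoter of Xist, the RNA that silences an X chromosome in females, had a peak of 1.01 in replicate 2 and none in replicate 1. Peaks on the whole Y chromosome numbered 40 in replicate 1 and 39 in replicate 2, so that total did not separate the libraries. Because of the values at the named genes, replicate 2 goes by the name of the library labelled male replicate 2 where the libraries are set against each other. Promoter peaks in both libraries were found at 2 of 2 marker genes of dentate granule cells (Prox1 and C1ql3), 2 of 3 of pyramidal cells, 2 of 3 of astrocytes, 1 of 3 of oligodendrocytes, 1 of 3 of microglia, 0 of 3 of inhibitory neurons and 0 of 2 each of endothelial, erythroid and liver cells. Over all protein-coding genes the share was 58.7%. Prox1 reached 1.51 and 1.06 in replicates 1 and 2. Some markers had a peak in 1 library only. These were Neurod2 (pyramidal, 2.12), Gad2 and Slc32a1 (inhibitory, 0.827 and 0.488) and Olig2 (oligodendrocyte, 0.996) in replicate 1, and Hbb-bs (erythroid, 0.245) in replicate 2. Gad1, Aqp4, Mog, Cx3cr1, Csf1r, Cldn5, Pecam1, Alas2, Alb and Apoa1 had none in either.

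Most clustered protocadherin promoters had no peak. In the window from 1 kb before to 1 kb after the annotated start, 4 of the 57 genes had a peak in both libraries, against 58.7% of all protein-coding genes. The 4 were Pcdhac1, Pcdhac2, Pcdhgc3 and Pcdhga11. Replicate 1 held a promoter peak at 9 of the 57 (61.1% of all genes), and the library labelled male replicate 2 at 5 (59.9% of all genes). The remaining 47 had none in either library. The C-type genes stood apart from the other members in the counts. Of the 5, 3 were called in both libraries (60%), a share near the 58.7% of all genes. Of the other 52 genes 1 was called (1.92%). In bulk tissue, a promoter open in few cells and a promoter less open in all cells cannot be told apart.

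**Figure D1:**
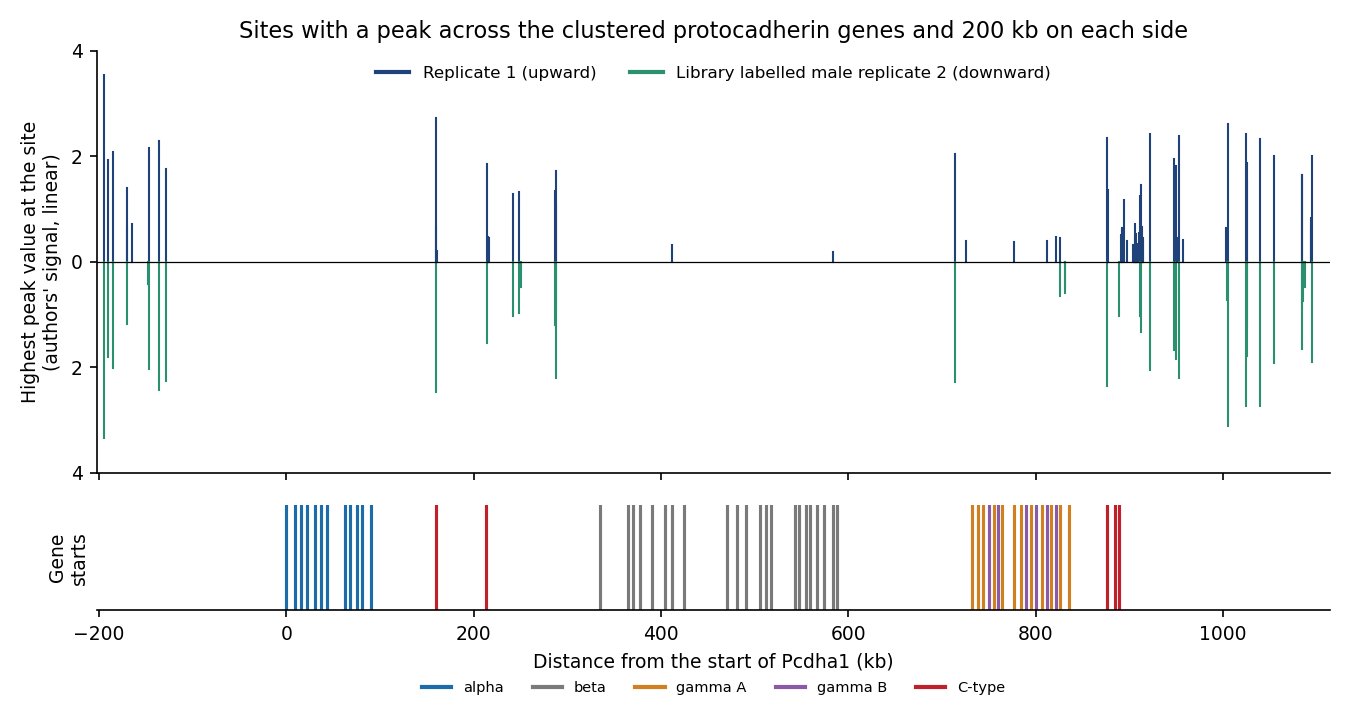
Height of each site with a peak (vertical axis, the authors' linear signal, highest peak of the site) against distance from the start of Pcdha1 in kb, with replicate 1 drawn upward and the library labelled male replicate 2 downward; the lower panel marks the starts of the 57 genes by subfamily. No line stands over Pcdha1 to Pcdha12, while sites at Pcdhac1, Pcdhac2, Pcdhgc3, between the clusters and after the gamma cluster appear in both libraries.

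The 3 C-type promoters with peaks in both libraries had values close to the middle of those of open promoters. The peak value is the height of the authors' signal, and no source used here states how it was scaled. Its median over all genes with a promoter peak was 2.16 in replicate 1, against 2.08 in the library labelled male replicate 2. The ratio of replicate 1 to replicate 2 had a median of 1.08 over the 12764 genes with a promoter peak in both.

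Pcdhac1 is the first of the C-type genes of the alpha cluster. Its promoter peak had a value of 2.72 in replicate 1, against 2.48 in the library labelled male replicate 2, a mean of 2.60 ± 0.173 (SD, n = 2). The combined site spanned chr18:37089841-37090260 (mm10), over the annotated start and the beginning of the variable exon. The peak ran from -172 to 247 bp around the start in replicate 1 and from -152 to 107 bp in replicate 2. Among promoters with a peak, 68.1% had a value at or below it in replicate 1 and 63.6% in replicate 2. Replicate 1 alone had a further peak of 0.650 at 428 to 507 bp and one of 0.198 at 922 to 1019 bp.

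Pcdhac2, known for its part in the tiling of serotonergic axons, had a value of 1.84 in replicate 1, against 1.54 in the library labelled male replicate 2, a mean of 1.69 ± 0.215 (SD, n = 2). A second peak followed closely, at 1.21 and 1.01. The joined site, chr18:37143421-37144960, was 1540 bp long, reached beyond the window and lay almost wholly downstream of the start. The first peak began at -42 bp in replicate 1 and at -82 bp in replicate 2. Its values stood at or above 39.3% and 34.1% of open promoters, the lowest places of the 3 genes.

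Pcdhgc3, which is also expressed outside neurons and whose protein binds Axin1, had 2.35 in each library. Its site was chr18:37806201-37806860. The peak lay from -23 to 496 bp in replicate 1 and from -163 to 156 bp in the library labelled male replicate 2, so the heights were alike while the edges differed. Replicate 1 had a second peak of 1.36 at 597 to 996 bp that replicate 2 lacked. The ratios of replicate 1 to replicate 2 were 1.10 for Pcdhac1, 1.20 for Pcdhac2 and 1.00 for Pcdhgc3, near the 1.08 of all promoters.

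The other C-type genes of the gamma cluster differed from these. Pcdhgc4, which is needed for the survival of cortical inhibitory neurons, had no promoter peak in either library. Pcdhgc5, known for late onset of expression in the postnatal brain, had no peak in replicate 1 and a single peak of 1.02 in the library labelled male replicate 2. That peak was 66 bp long, from 123 to 188 bp after the start, and it was absent from the authors' shorter list of peaks. The plot of promoter values by gene shows these 5 genes beside the rest.

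**Figure D2:**
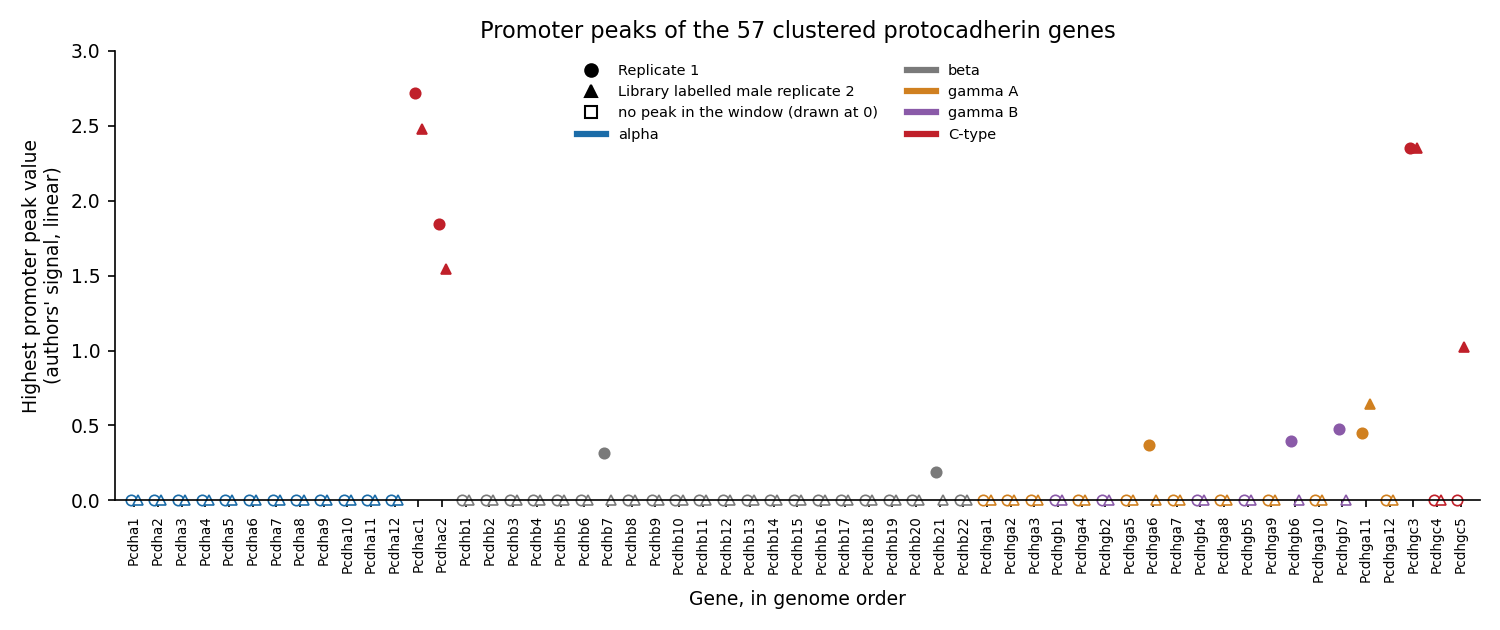
Highest promoter peak value (vertical axis, the authors' linear signal) of each of the 57 genes in genome order, with circles for replicate 1 and triangles for the library labelled male replicate 2, coloured by subfamily; open symbols at 0 mark windows with no peak. Pcdhac1, Pcdhac2 and Pcdhgc3 lie between 1.54 and 2.72 in both libraries, and no gene outside the C-type exceeds 0.645.

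No promoter peak was found in either library at any of the 12 alpha genes from Pcdha1 to Pcdha12. Among the 22 beta genes, Pcdhb7 had a peak of 0.318 and Pcdhb21 one of 0.191, both in replicate 1 only. The other 20, from Pcdhb1 at the start of the cluster to Pcdhb22 at its end, had none. Of the 12 gamma A genes, Pcdhga6 had a peak of 0.367 in replicate 1 only and Pcdhga11 had one in each library. Pcdhga1 to Pcdhga5, Pcdhga7 to Pcdhga10 and Pcdhga12 had none. Of the 6 gamma B genes, Pcdhgb6 (0.396) and Pcdhgb7 (0.473) had a peak in replicate 1 only, and Pcdhgb1, Pcdhgb2, Pcdhgb4 and Pcdhgb5 had none. The library labelled male replicate 2 thus had a promoter peak at 1 of these 52 genes and replicate 1 at 6.

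Pcdhga11 met the count in both libraries without a common site. Its peak had a value of 0.452 in replicate 1, from 205 to 469 bp after the start, and of 0.645 in the library labelled male replicate 2, from -110 to 24 bp. The peaks did not overlap, and neither was in the authors' shorter list. Its values stood at or above 3.07% of open promoters in replicate 1 and 8.90% in replicate 2. The peaks found in replicate 1 alone at beta and gamma genes stood between the 0.180% of Pcdhb21 and the 3.59% of Pcdhgb7. With the peaks of both libraries required to overlap, or with the authors' shorter list, 3 genes remained, Pcdhac1, Pcdhac2 and Pcdhgc3.

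The FDR runs reached below the level of peaks and gave a similar split. They trace to the same alignment as the peaks, so they are not separate support for it. A base with an FDR under 0.05 lay in the window of 6 genes in both libraries, against 59.5% of all genes. These were the 5 C-type genes and Pcdhga11. No such base was listed in either library at 44 of the 57 genes, against 36.3% of all genes. At Pcdhac1 the lowest FDR was 4.84e-36 in replicate 1, against 4.31e-22 in the library labelled male replicate 2, and 1415 and 1229 of the 2001 bases of the window were listed. At Pcdhac2 it was 5.07e-11 and 3.31e-09, over 1174 and 1124 bases. At Pcdhgc3 it was 9.81e-18 and 2.50e-06, over 1409 and 509 bases, so the listed stretch was shorter in replicate 2 although the peak heights were alike.

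The other 2 C-type genes were at the edge of the listing. Pcdhgc4 had 2 listed bases in replicate 1 (lowest FDR 0.0463) and 7 in the library labelled male replicate 2 (0.0409). Pcdhgc5 had 1 base in replicate 1 (0.0473) and 110 in replicate 2 (0.00505). Pcdhga11 had 293 bases (0.00409) and 135 (0.00576). At an FDR of at most 0.001 in both libraries, 3 genes were left, again Pcdhac1, Pcdhac2 and Pcdhgc3. Among the alpha genes Pcdha8 alone had a listed run, of 27 bases in replicate 1 with a lowest FDR of 0.0351, and Pcdha1 to Pcdha7 and Pcdha9 to Pcdha12 had no listed base in either library.

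Footprints were found in both libraries at the same 4 genes, against 57.0% of all genes. Pcdhac1 had 6 in replicate 1, against 7 in the library labelled male replicate 2, Pcdhac2 12 and 12, Pcdhgc3 9 and 3, and Pcdhga11 2 and 2. Pcdhb7, Pcdhga6 and Pcdhgb6 had 1 each in replicate 1 only. All footprints at members other than 4 of the 9 at Pcdhgc3 in replicate 1 touched a peak of their own library.

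The positions of the footprints were shared to different degrees. At Pcdhac1, 3 of 6 footprints of replicate 1 and 3 of 7 of replicate 2 overlapped one of the other library. The longest lay at -77 to -46 bp in replicate 1 and at -76 to -46 bp in replicate 2, 32 and 31 bp long. Footprints of at least 31 bp made up 1.70% of all footprints of replicate 1 and 2.38% of those of replicate 2, whose median lengths were 8 and 9 bp. At Pcdhac2, 5 of 12 and 4 of 12 overlapped, among them those at -10 to 4 bp and -4 to 2 bp over the start itself. At Pcdhgc3 the overlap was 1 of 9 and 1 of 3, and at Pcdhga11 it was 0 of 2 and 0 of 2. Over all promoter windows 38.3% of the footprints of replicate 1 and 48.7% of those of replicate 2 overlapped one of the other library. With so few footprints per gene, the shares at single genes are counts and no more.

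**Figure D3:**
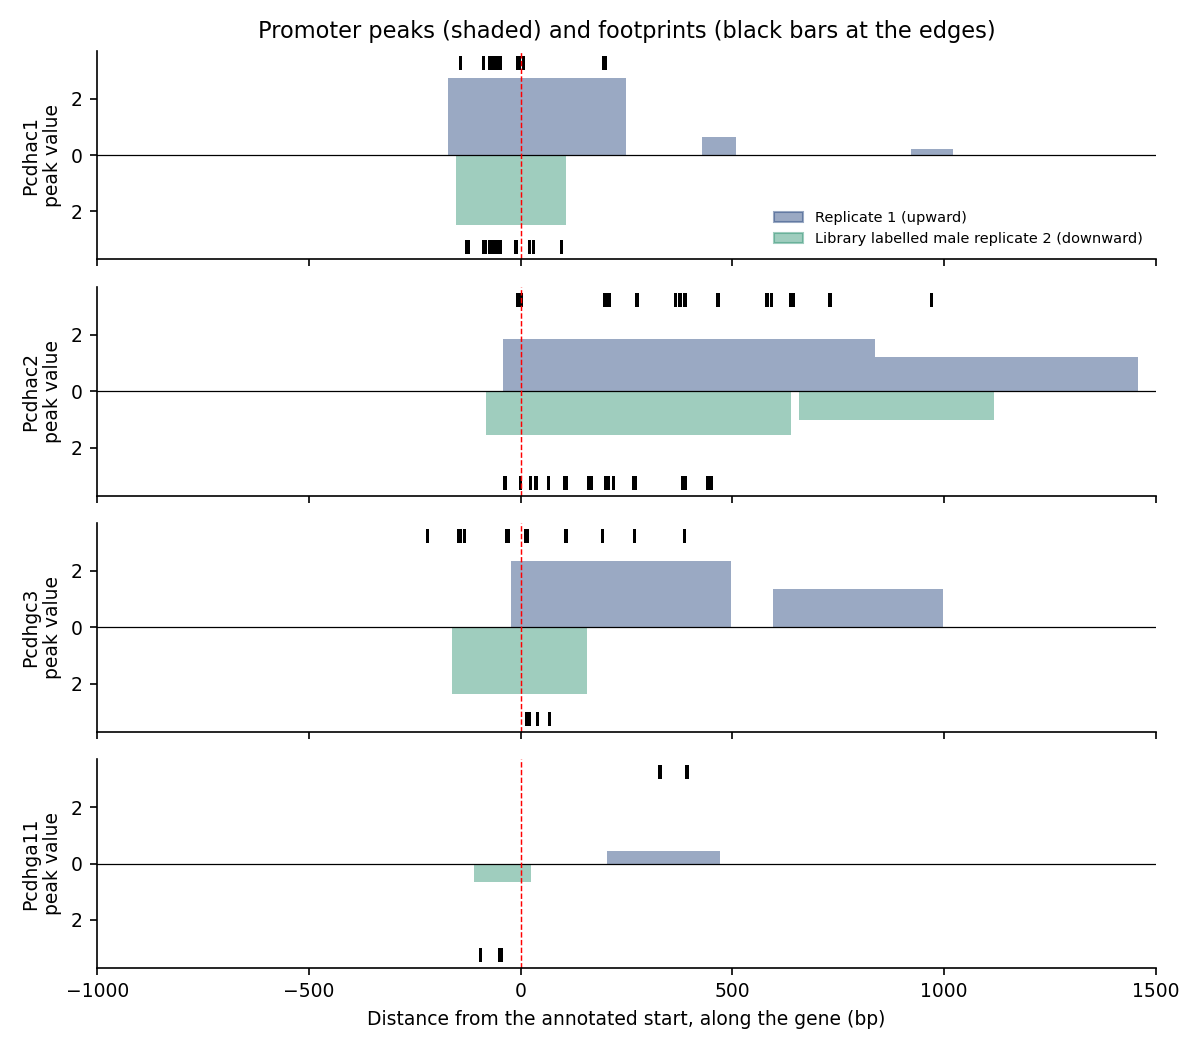
Promoter peaks (shaded, height on the vertical axis as the authors' linear signal) and footprints (black bars at the edges) of Pcdhac1, Pcdhac2, Pcdhgc3 and Pcdhga11 against distance from the annotated start in bp (dashed line), with replicate 1 upward and the library labelled male replicate 2 downward. The peaks of the first 3 genes overlap between the libraries, and those of Pcdhga11 do not.

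Base composition separated the C-type windows from the rest. Their share of G and C bases ran from 50.2% to 54.8%, and that of the other 52 windows from 38.8% to 47.2%. The median over all protein-coding genes was 51.3%. The ratio of observed to expected CpG, the dinucleotide at which vertebrate DNA is methylated, did not separate them. This ratio had its lowest median in beta genes (0.33) and overlapping ranges in the other subfamilies. It ran from 0.52 to 0.70 in alpha genes, from 0.14 to 0.48 in beta genes, from 0.45 to 0.77 in gamma A genes and from 0.46 to 0.61 in gamma B genes. The C-type genes spanned 0.25 at Pcdhgc5 to 0.82 at Pcdhgc3, and Pcdhga11 had the highest value outside them, 0.77. The median over all genes was 0.48.

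Genes with a high CpG ratio were nearly all open elsewhere. Of all genes with a ratio of at least 0.6, 95.7% had a promoter peak in both libraries, against 39.4% of those below. Of the 57 clustered genes 15 had such a ratio, and 3 of them (Pcdhac2, Pcdhgc3 and Pcdhga11) had a peak in both. Of the 42 below it 1, Pcdhac1, had one. Of all genes with under 50% of G and C bases, 30.8% had a peak in both libraries, and of the 52 clustered genes in that class 1, Pcdhga11, had one. Both limits were chosen after the data were seen, and windows differ in other ways as well, so these are counts side by side.

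**Figure D4:**
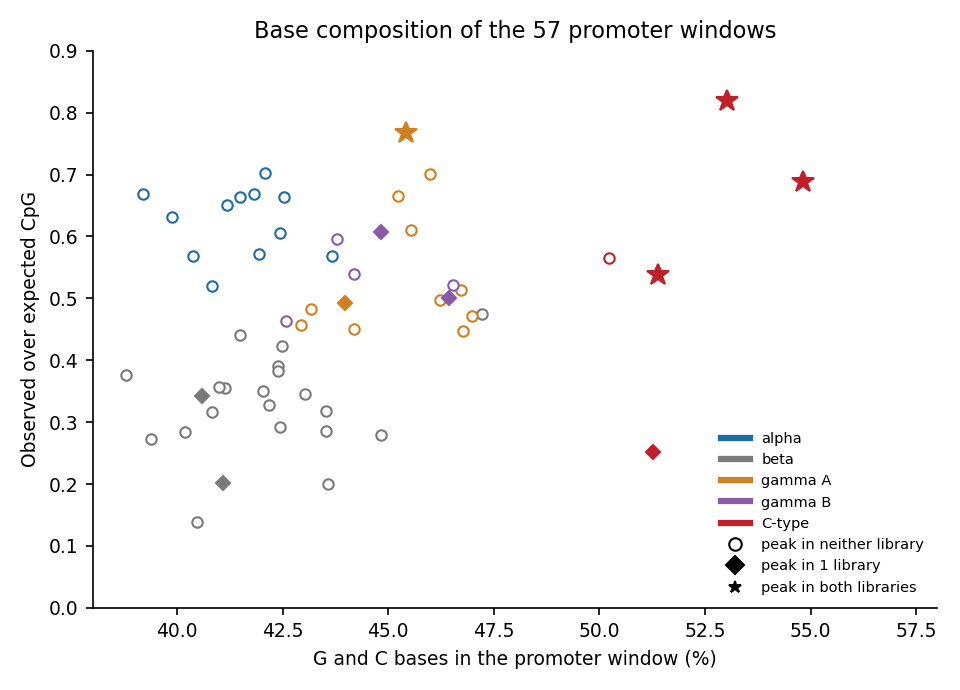
Ratio of observed to expected CpG (vertical axis) against the percentage of G and C bases (horizontal axis) in the promoter windows of the 57 genes, coloured by subfamily, with stars for a peak in both libraries, diamonds for 1 library and open circles for neither. The 5 C-type genes lie at 50.2% or more, and alpha genes without any peak reach ratios of 0.70.

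The 2 sequence elements searched for were distributed differently over the promoters. CTCF, an insulator protein that binds alpha promoters and exons and with cohesin brings them to enhancers, has a consensus that was searched on both strands. It was found without mismatch in 6 of the 57 windows (10.5%), against 1.73% of all promoter windows of the same length. All 6 were alpha genes without a peak in either library, Pcdha1, Pcdha4, Pcdha6, Pcdha7, Pcdha8 and Pcdha12, and Pcdhac2, Pcdhgc3 and Pcdhga11 had no match even with 1 mismatch. The matches began 537 to 581 bp after the start, inside the variable exon and on the strand of the gene. With at most 1 mismatch 13 windows held a match (22.8%, against 20.8% of all windows), and 9 of these were alpha genes, all in the variable exon. None of the 9 lay on a run with an FDR under 0.05 in either library. Of the 13, the match at 715 bp in Pcdhac1, on the opposite strand, did. The letters CGCT, the core of a longer element conserved among many of these promoters, were searched on both strands from 250 bases before to 50 after the start. They occurred in 55 of the 57 genes (96.5%), with and without a peak, and in 67.6% of all genes. Pcdhb22 and Pcdhga12 lacked them. A match describes letters and does not show binding, and a match to CGCT does not show that the longer element is present.

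By the median, sequence repeated elsewhere in the genome was most frequent in the alpha and gamma B windows. Of all stretches of 31 bases in a window, a median of 11.5% recurred elsewhere in alpha genes, with a range of 7.66% to 26.8%. The medians were 0.482% in beta genes, 2.61% in gamma A genes, 11.1% in gamma B genes and 0 in C-type genes, and it was 0.913% over the genes of chromosome 18. The beta windows were uneven, from 0 to 22.0%, and those from Pcdhb4 to Pcdhb12 ran from 7.97% (Pcdhb5) to 22.0% (Pcdhb9). Gamma B windows ran from 0 to 19.2%. Pcdha7 had the highest share, so most stretches of each window were unique. No window had a second place in the genome at 90% identity over 80% of its length. No source used here says how reads with several places were treated. Their part in the missing peaks of alpha, beta and gamma genes was not tested. The same holds for reads of the CAST genome, which were aligned to the C57BL/6J assembly.

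Around the promoters, open sites fell into a few short intervals. From the first to the last gene, chr18:36930184-37841873, there were 40 peaks of replicate 1 (43.9 per Mb) but 17 of the library labelled male replicate 2 (18.6 per Mb), beside 36.1 and 29.6 per Mb on chromosome 18. Of these 40 peaks of replicate 1, 17 lay in the 19.7 kb of the gamma constant exons (861 per Mb), where replicate 2 had 1. The density of replicate 1 over the clusters thus rested in large part on that interval. No peak of either library lay in the 159.8 kb from 1 kb before Pcdha1 to 1 kb before Pcdhac1. This was part of a stretch of 287.8 kb without peaks in either library, and 8 of the 3761 such gaps on the chromosome were longer, with a median gap of 5.55 kb. In the 260.5 kb from Pcdhb1 to Pcdhb22 replicate 1 had 2 peaks, at Pcdhb7 and Pcdhb21, and replicate 2 had 0. In the 144.6 kb of the gamma A and gamma B genes they had 4 and 3, none of them shared. The peaks of replicate 2 there included 2 at the start of Pcdhgb8, the highest 0.593.

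The alpha cluster had open sites at its constant exons. A site at chr18:37172281-37172680, at the start of the annotated transcript Gm38097, had a value of 1.29 in replicate 1, against 1.02 in the library labelled male replicate 2. A site at chr18:37178321-37178880, at the start of Gm10544, had 1.32 and 0.973. A weaker peak of 0.471 at chr18:37180098-37180280 was in replicate 2 only.

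Between the alpha and beta clusters there were 3 sites, all in both libraries, close together and starting 29.6 to 30.5 kb beyond the last alpha constant exon. This interval is known to hold HS5-1, an enhancer of the alpha cluster. The first site, chr18:37217221-37217520, had a value of 1.34 in replicate 1, against 1.21 in the library labelled male replicate 2. The middle one, chr18:37217721-37218060, had 1.09 and 0.909. The last, chr18:37218201-37218460, had 1.72 and 2.20 and was the strongest of the 3 in both.

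The first of these sites held the CTCF consensus without mismatch and the last held it with 1 mismatch. Both matches were on the strand opposite to that of the alpha genes and of the matches in the alpha exons. A footprint touched the first match in replicate 1 and none did in replicate 2, and a footprint touched the last match in each library. Of all peaks, 3.82% in replicate 1 and 5.52% in replicate 2 held the consensus without mismatch, and 12.3% and 16.5% with at most 1 mismatch.

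Between the beta and gamma clusters the one protein-coding promoter with a peak in both libraries was that of Taf7, a subunit of the general transcription factor TFIID, at 2.05 and 2.28. Slc25a2, a mitochondrial carrier gene in the same interval, had none. Replicate 1 also had a peak of 0.389 at the start of 3222401L13Rik.

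At the end of the gamma cluster the libraries differed. Between the variable exon of Pcdhgc5 and the last constant exon, 19.7 kb, replicate 1 had 17 peaks and the library labelled male replicate 2 had 1. Listed FDR bases numbered 8882 and 100, and footprints 43 and 2. The peaks of replicate 1 were mostly weak, with a median value of 0.481. The strongest without a partner, 1.17, lay at chr18:37824021-37824380 at the start of the annotated transcript Gm38182, and the lowest FDR of the interval, 7.42e-83 in replicate 1 and 0.0184 in replicate 2, differed as well. The shared site, chr18:37841181-37841760 at the last constant exon, had 1.25 and 1.03. The part of the sex-linked difference between the libraries and of their depth in this was not tested. Of the sites in replicate 1 alone, chr18:37835641-37836280 and chr18:37839235-37840777 each held a CTCF match with 1 mismatch on the strand of the genes. A footprint of replicate 1 touched the match of the second site. The shared site held a match with 1 mismatch on the opposite strand, touched by a footprint in replicate 2 only.

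**Figure D5:**
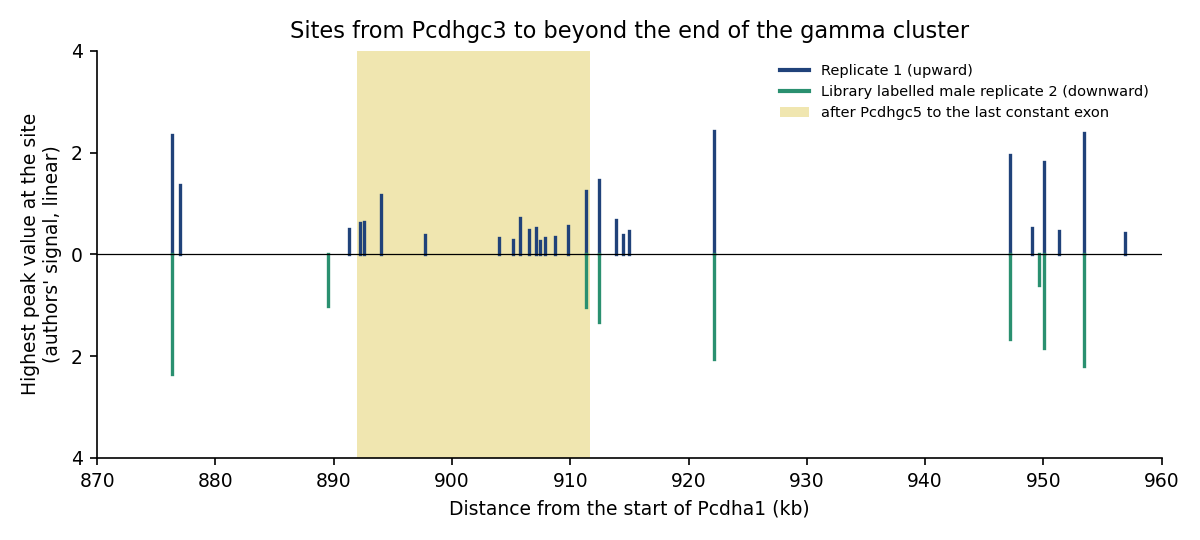
Height of each site with a peak (vertical axis, the authors' linear signal) from Pcdhgc3 to beyond the gamma cluster against distance from the start of Pcdha1 in kb, with replicate 1 upward, the library labelled male replicate 2 downward, and the interval from after Pcdhgc5 to the last constant exon shaded. The shaded interval holds 17 peaks of replicate 1 and 1 of replicate 2, whereas the 4 tall sites to the right stand in both.

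Downstream of the gamma cluster lies the region known to hold the control elements of the beta and gamma genes. Within 50 kb of the cluster's end, the site with the highest mean over both libraries was chr18:37883521-37883720, with 2.38 in replicate 1, against 2.20 in the library labelled male replicate 2. The next by mean was chr18:37852121-37852460, with 2.42 and 2.05, the highest of the interval in replicate 1. It held 2 CTCF matches with 1 mismatch on the strand opposite to the genes, touched by footprints in both libraries. Sites at chr18:37880021-37880480 (1.81 and 1.85) and chr18:37877181-37877580 (1.94 and 1.67) followed. All 4 lay in Diaph1, outside its exons. A site at chr18:37842001-37843300, 0.128 kb beyond the last constant exon, had 1.46 and 1.33.

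The remaining peaks of that interval were in 1 library each and weak. Those of replicate 1 were 0.664 at chr18:37843821-37844280, 0.389 at chr18:37844441-37844873, 0.452 at chr18:37845053-37845320, 0.516 at chr18:37879176-37879232, 0.452 at chr18:37881461-37881524 and 0.417 at chr18:37887061-37887120. The library labelled male replicate 2 had 0.599 at chr18:37879781-37879900. The 5 sites found in both libraries therefore exceeded every single-library site within 50 kb of the cluster.

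Most genes beside the clusters had a promoter peak. Of 13 protein-coding genes whose start lay in the flanks of 200 kb, 11 had a promoter peak in both libraries (58.7% of all genes). The upstream flank held Tmco6 (3.54 in replicate 1, against 3.35 in the library labelled male replicate 2), Ndufa2 and Ik with a common peak (2.08 and 2.02), Wdr55 (1.40 and 1.19), Hars and Hars2 with a common peak (2.16 and 2.04) and Zmat2 (2.29 and 2.43). Dnd1, a germ cell gene, had 0.721 in replicate 1 and none in replicate 2. The downstream flank held Diaph1 (2.61 and 3.11), Hdac3 and Rell2 with a common peak (2.43 and 2.75) and Fchsd1 (2.32 and 2.75), while Arap3 had none. Outside coding promoters the flanks further held shared sites at the start of Vaultrc5 (1.77 and 2.26) and in Tmco6 (1.94 and 1.80). Another lay in an exon of Arap3 (2.00 and 1.92). Its CTCF match, without mismatch, was on the strand of the clustered genes and under a footprint in both libraries. There were 2 more, at chr18:38013861-38014480 (1.64 and 1.66) and chr18:38024981-38025720 (2.00 and 1.91). The latter held a match with 1 mismatch on the same strand, touched by footprints in both libraries.

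Protocadherin genes outside the clusters had promoter peaks in a larger share of genes than the clustered ones, a difference that was not tested. Of 12 such genes 11 had a promoter peak in both libraries (58.7% of all genes). Pcdh9, expressed in many cortical and hippocampal neurons, had 3.02 in replicate 1, against 3.36 in the library labelled male replicate 2, and Pcdh17 had 3.32 and 3.29. Pcdh19, an X-linked epilepsy gene, had 1.33 and 1.29. Pcdh12, a gene of endothelial cells, had none. The clustered genes called in both libraries other than Pcdhga11 fell within the range of these 11, from 0.721 to 3.77 in replicate 1 and from 0.541 to 3.36 in replicate 2.

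Of 20 genes known to regulate the clusters, 14 (70%) had a peak in both libraries at the outermost annotated start. The share over all genes was 58.7%, and the difference was not tested. When every annotated start of a coding transcript was taken, 20 of 20 had one (62.1% of all genes). Ctcf had 3.14 in replicate 1, against 2.80 in the library labelled male replicate 2. Smc3, a cohesin subunit, had 5.49 and 4.32. Smchd1, a silencing protein known to act on these clusters, had 3.38 and 2.62, and Dnmt3b, the methyltransferase that marks their promoters early in development, had 1.07 and 0.793. Of 18 genes for partners and processing of the proteins, 17 had one at the outermost start (58.7% of all genes), among them Ptk2, the kinase FAK (1.85 and 1.95), and Adam10, the protease that sheds their outer part (2.76 and 3.75). Taking every annotated start left the count of clustered genes at 4.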

How the data were processed

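DNase-seq of 2 libraries was used. Each library has deposited peaks with a signal value, in a longer and a shorter list, as well as footprints and base-by-base FDR values, a p-value type column that holds values under 0.05. Coordinates are on mm10 per the file headers, and the notes deposited with each library trace its lists to its own alignment, without pooling of replicates. The sources used here do not give the aligner, callers, versions or scaling. The deposited p-value type column of the footprint files is constant and was not used.

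The annotation was GENCODE M21, and bases were read from the RefSeq copy of GRCm38.p6, which is mm10. A promoter window was 1 kb on each side of the annotated start. A feature was counted when it overlapped the window by at least 1 bp, and libraries shared a peak at the same overlap. Neighbouring peaks of either library that touched were joined into sites, given by their highest peak in each library. Python 3.11.15, numpy 2.4.6, scipy 1.17.1, matplotlib 3.10.9 and blastn 2.17.0 were used, and the overlap step was tested on simulated data. No test was run, since the libraries form 1 group of 2. Counts of members stand beside the percentage over all 21755 genes. The shares of peaks in the stretch that the other library held carry exact 95% intervals (not where the gamma constant exons were left out) after Clopper and Pearson, for counting error alone; other shares are given without an interval. The depth per sample is unknown.

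The genes, gene lists and markers were chosen with earlier results of these data known. Named were all C-type genes, the first and last gene and the 3 highest of each other subfamily, every member whose call differed between libraries, the 10 strongest shared sites outside coding promoters, all sites between alpha and beta and within 50 kb after gamma, and coding promoters in the flanks; other genes of the lists were chosen after their values were seen.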

Additional observations from a re-analysis of the deposited data

How the results depend on the processing

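No paired analysis was possible because the 2 libraries form 1 group. The count of 4 members called at the promoter in both libraries stayed within 1.5 times, at 3 to 5, for windows of 500 bp and 2.5 kb, the authors' shorter list, the middle base of the peak, any coding start and overlapping peaks, and the percentage over all genes ran from 53.3 to 62.1. With a single library the count was 5 to 9, that of genes with a footprint (4) was 4 to 7, and that of genes with an FDR run (6) was 6 to 13; replicate 1 gave the higher count each time. At an FDR of at most 0.001 the last count was 3. The CTCF consensus (6) was in 13 windows with at most 1 mismatch and in 0 at 500 bp. Peaks in the stretch with flanks (73 in replicate 1, 45 in the library labelled male replicate 2) fell to 40 and 17 without flanks, and to 24 with flanks of 50 kb in replicate 2. Of the peaks of replicate 1 there, 45.2% (exact 95% interval 33.5 to 57.3) were found in the other library, beside 59.8% in the genome. For replicate 2 the share was 77.8% (62.9 to 88.8), beside 71.7% in the genome. The intervals take neighbouring peaks as independent, although 17 of the 73 peaks of replicate 1 lay in the gamma constant exons. Without that interval, chosen after seeing the data, replicate 1 reached 57.1%. A reciprocal overlap of 50% gave 32.9% (22.3 to 44.9) for replicate 1 and 53.3% (37.9 to 68.3) for replicate 2. No genome share was taken under that stricter rule, so these 2 shares have no background beside them. Depth is unknown, so a missing peak says only that none was listed.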
